A study of Mus musculus with 24 samples.

Results

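The interaction of sarcosine and memantine is the difference between the effect of sarcosine in mice that also received memantine and its effect in mice that did not. For each gene it was taken as (combination minus memantine) minus (sarcosine minus vehicle) on log2(normalised count + 1). A value of 0 means that the log2 effects of the drugs simply added, a positive value that sarcosine's difference was higher with memantine present, and a negative value that it was lower. All 24 libraries of the series entered the comparison, 6 in each of 4 groups. Of 57180 genes in the table, 16578 reached 10 normalised counts in 6 or more libraries and were tested.

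RNA was sequenced from frozen punches of the frontal cortex of wild-type male C57BL/6 mice, with an age given as 4 weeks. Every mouse was injected intraperitoneally once daily, and RNA was taken at day 28. Whether 4 weeks was the age at the first injection or at day 28 is not settled here. The vehicle group received the solvent only, the sarcosine group 100 mg/kg sarcosine, the memantine group 20 mg/kg memantine, and the combination group 100 mg/kg sarcosine with 20 mg/kg memantine. The labels number the libraries but do not say how many animals each punch came from, so p-values measure the spread between these libraries.

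Sarcosine (N-methylglycine) is an intermediate of one-carbon metabolism that inhibits the glycine transporter GlyT1 and so raises glycine, a co-agonist that NMDA-type glutamate receptors need in order to open. Memantine blocks the channel of the same receptors once it has opened. The drugs therefore act on the same receptor in opposite directions, one at its co-agonist site and the other in its pore.

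The libraries held 12678114 to 21844579 reads assigned to genes. Mean read numbers were 16439000 ± 789970 in the vehicle group, 19304000 ± 1576200 in the sarcosine group, 17269000 ± 2435900 in the memantine group and 15163000 ± 372520 in the combination group (SD, n = 6 each), so depth itself had an interaction of -4970700 reads (permutation test of 100000 resamples, two-sided, p = 0.00085, adjusted over 4 library measures p = 0.0017). The leading principal component of the 24 libraries held 45.6% of the variance. Markers of tissues next to the frontal cortex varied widely within groups. The summed level of the 15 olfactory bulb markers in the table ranged over 3126 to 7892 in vehicle libraries, 3133 to 17997 in sarcosine libraries, 4415 to 18475 in memantine libraries and 3064 to 22518 in combination libraries. The sum of the 16 striatal markers reached 16553.6 in vehicle, 50315.5 in sarcosine, 20617.2 in memantine and 26359.1 in combination libraries. That of the 13 choroid plexus markers reached 6703.3, 55570.5, 75612.3 and 46508.5. Over the tested striatal markers the median log2 difference was 0.63 for sarcosine minus vehicle and 0.52 for combination minus memantine. The 13 markers of cortical excitatory neurons were detected throughout, with a summed level of 13500 in a sarcosine library to 69907 in a vehicle library.

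The interaction was called for 301 of 16578 genes (1.82%) at an adjusted p below 0.05 by limma with Benjamini-Hochberg adjustment over all genes tested. It was positive for 96 (0.579% of the genes tested) and negative for 205 (1.24%). A total of 2782 genes had an unadjusted p below 0.05, where 828.9 would be expected with no difference. Counts of list members at an unadjusted p below 0.05 are to be read beside 2782 of 16578. With upper-quartile scaling in place of the authors' size factors the split was 343 positive and 132 negative, so the balance of directions depended on the scaling. Among the 301 genes, 291 were protein coding and the smallest adjusted p was 0.0261. The count depended on single libraries. It was 0 without sarcosine replicate 2 or 5, memantine replicate 3 or 4, or combination replicate 1 or 4, where 2398 to 2598 genes had an unadjusted p below 0.05. Without vehicle replicate 1, 3, 4 or 6 it was 53, 39, 106 or 16, and without sarcosine replicate 1, 3 or 6 it was 83, 34 or 91. Without memantine replicate 1, 2 or 6 it was 163, 135 or 51, and without combination replicate 2 or 3 it was 162 or 150. It was 809 without sarcosine replicate 4 and 983 without combination replicate 6. The remaining 4 libraries moved it by less than 1.5 times. All 301 genes kept the sign of their interaction in each of the 24 fits, as did 12265 of the 16578 genes tested. The 301 were chosen from these same libraries for interactions far from 0, so their kept signs are not a separate test.

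**Figure D1:**
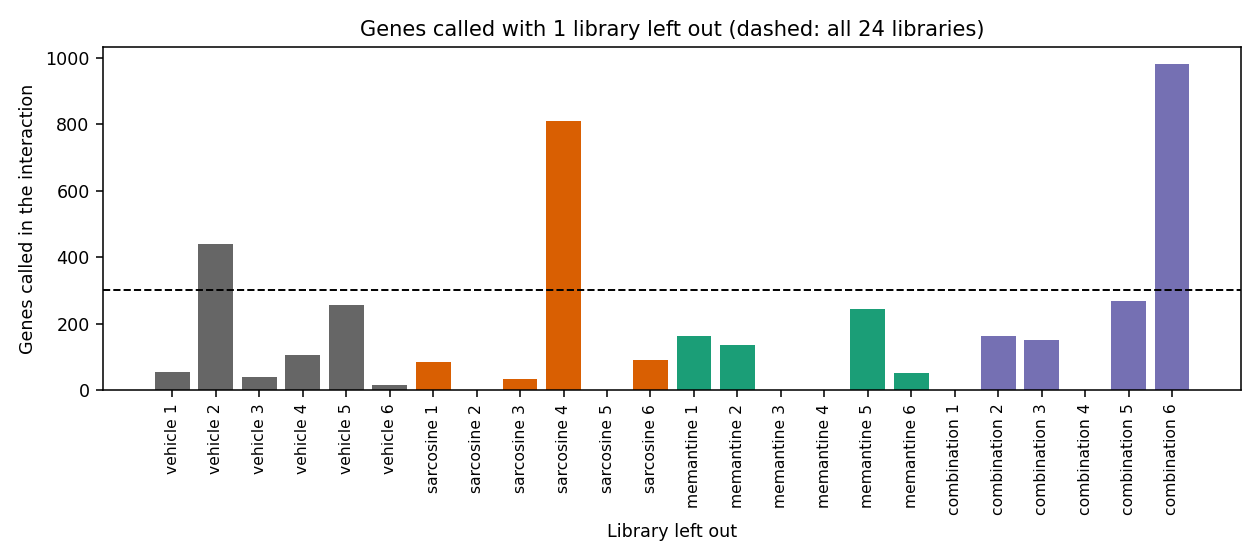
Number of genes called in the interaction (vertical axis) when 1 library was left out (horizontal axis, coloured by group); the dashed line marks the 301 called with all 24 libraries. The count was 0 in 6 of the 24 fits and above 301 in 3 of them.

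The called genes shared a common form. The 205 genes with a negative interaction were all higher in sarcosine than in vehicle libraries, with a median difference of 0.35 (log2), while their median difference between combination and memantine libraries was -0.13. The 96 genes with a positive interaction were all lower in sarcosine than in vehicle libraries, with a median of -0.36, against a median of 0.098 between combination and memantine. In 277 of the 301 genes the differences had opposite signs with and without memantine, as in 8387 of all 16578 genes tested. The interaction is the gap between these differences, so choosing genes with a large interaction favours opposite signs. Memantine minus vehicle had a median of 0.24 over the negative set and of -0.26 over the positive set, the signs that sarcosine minus vehicle had. The vehicle libraries enter the interaction, the sarcosine comparison and the memantine comparison alike, so these medians are a description of the called genes and not a separate test.

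The called genes also differed in length. The median transcript length, from the longest annotated transcript of each gene, was 7050.5 bases for the 204 negative genes with a length, 1281 bases for the 93 positive genes with one and 3281 bases over all genes tested. In the shortest genes, of 4 bins of nearly equal size, (65 to 2103 bases) 67 genes were called positive and 1 negative, and the median interaction of the bin was 0.21. In the next bin (2104 to 3281 bases) the counts were 21 and 8, and in the third (3282 to 4722 bases) 4 and 27. In the bin of the longest genes (4723 to 123179 bases) 1 gene was called positive and 168 negative, with a median interaction of -0.19. Across the 16287 genes with a length, the correlation of the interaction with log10 length was -0.398. It was 0.430 for sarcosine minus vehicle and -0.0945 for combination minus memantine, and genes within a library are not independent replicates.

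The same pattern was measured library by library as a length slope, the change of a gene's log2 level, relative to its mean over all libraries, per 10-fold increase of transcript length. The slope averaged -0.228 ± 0.096 in vehicle libraries, 0.182 ± 0.146 in sarcosine libraries, 0.064 ± 0.070 in memantine libraries and -0.018 ± 0.183 in combination libraries (SD, n = 6 each). Its interaction was -0.492 (SE 0.107, permutation test of 100000 resamples, two-sided, p = 0.00023, adjusted over 4 library measures p = 0.00092). Without any 1 library it lay between -0.547 and -0.441, with p at most 0.00066. All vehicle libraries lay below 0, and 5 of the 6 sarcosine libraries above it. Sarcosine replicate 4, at -0.0898, and combination replicate 6, at 0.240, were the lowest and the highest of their groups, and combination replicate 1 was the lowest of its group at -0.274. Sarcosine replicate 4 and combination replicate 6 are the libraries without which the number of called genes was highest.

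When each library was corrected for transcript length and GC content, limma called the interaction for 0 of 16287 genes (0%), with 1424 at an unadjusted p below 0.05 and a smallest adjusted p of 0.104. The other tools were not run on the corrected values. The 297 called genes that have a length kept their sign, and 194 of them kept more than 50% of their interaction. Over all 16287 genes with a length, 13409 kept their sign and 10050 kept more than 50%. The median absolute interaction of the called genes went from 0.457 over the 301 genes to 0.264. The correction removes any change that follows length, whatever its source, and whether the length pattern arose in the tissue or in RNA preparation was not tested. Each value below was taken without the correction unless it is stated, and in the corrected fit the interaction of no gene named below passed the threshold. Some named genes did pass in the corrected fit for other comparisons, among them Gbp4 and Acer2 in combination against memantine.

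**Figure D2:**
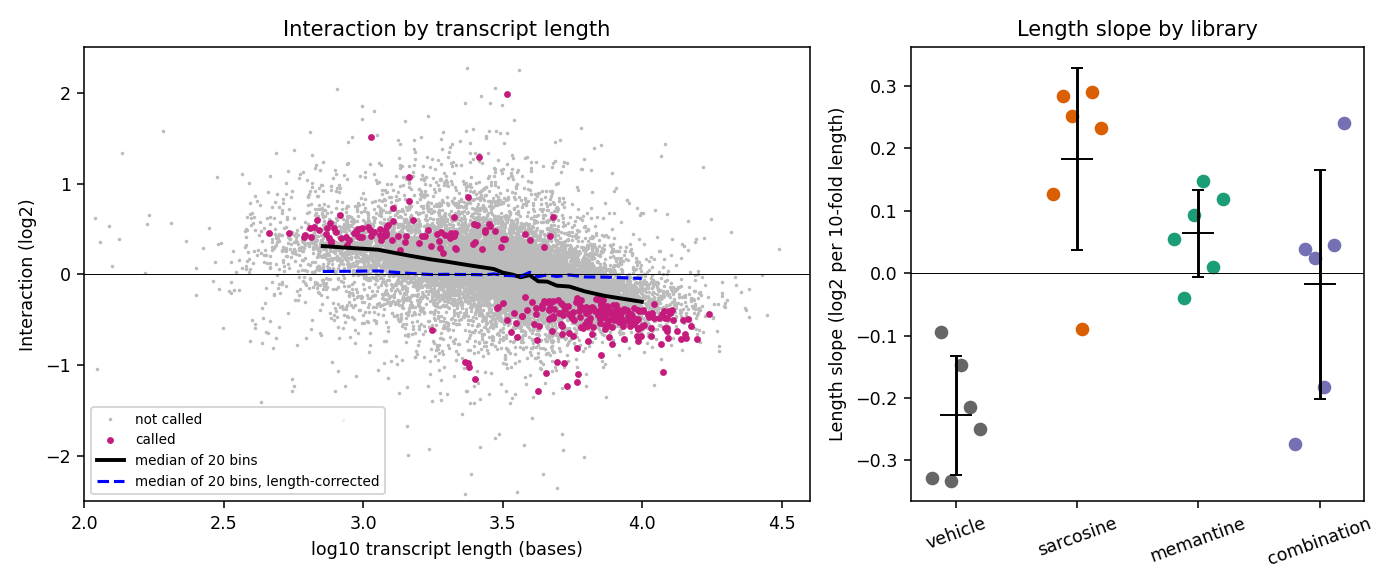
Left, interaction of each gene (log2) against log10 transcript length in bases, with called genes in magenta, the median of 20 bins of equal gene number as a solid line and the same after the length correction as a dashed line; genes beyond the axes are not drawn. Right, length slope of each library (log2 per 10-fold length) with mean and SD for the 4 groups: all vehicle libraries lie below 0 and the sarcosine mean is 0.182.

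In all but Per2 of the 15 most negative named genes, the highest group median was that of sarcosine alone. Usp9x encodes an X-linked deubiquitinase that protects proteins from degradation. Its normalised counts (lowest, median and highest library) were 1230, 1518 and 1988 with vehicle, 1965, 3006 and 3317 with sarcosine, 1960, 2118 and 2498 with memantine, and 1419, 2075 and 2432 with the combination. The sarcosine libraries were high except replicate 4, which lay within the vehicle range, and the memantine and combination libraries overlapped. Had the log2 effects added, the combination would have been at 4068 normalised counts, against a geometric mean of 1927. The interaction was -1.08 (log2, SE 0.19, limma adjusted p = 0.0261), from 0.90 without memantine to -0.18 ± 0.14 (SE) with it.

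Fam120c, a gene of unclear function that encodes a putative transmembrane protein, had no overlap between sarcosine and vehicle. Its counts were 462.5, 549.6 and 732.0 with vehicle, 792.1, 869.2 and 1009 with sarcosine, 641.5, 734.8 and 891.5 with memantine, and 600.2, 672.2 and 798.4 with the combination. All sarcosine libraries stood above all vehicle libraries, whereas combination and memantine overlapped. The interaction was -0.81 (SE 0.14, adjusted p = 0.0261), and it stayed called in 18 of the 24 fits that left out 1 library, as did that of Usp9x.

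Gse1, which encodes a component of a histone deacetylase complex, had the same form. Its counts were 377.9, 543.3 and 574.5 with vehicle, 748.7, 899.3 and 1015 with sarcosine, 605.8, 672.8 and 782.7 with memantine, and 505.5, 623.5 and 869.7 with the combination. Both single-drug groups lay above vehicle without overlap, and the combination reached into both the vehicle and the sarcosine range. Its interaction was -0.89 (SE 0.17, adjusted p = 0.0261).

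Sik2 (a salt-inducible kinase that restrains CREB co-activators) had the most negative interaction of the named genes that passed the test, at -1.23 (SE 0.29, adjusted p = 0.0423), and the clock gene Per2 came next at -1.19. The mean count of Sik2 was 204.2 ± 44.8 in the vehicle group, 381.1 ± 70.7 in the sarcosine group, 334.6 ± 35.2 in the memantine group and 284.9 ± 108.2 in the combination group (SD, n = 6). The sarcosine and vehicle libraries overlapped, and the combination libraries spread from 139.8 to 438.6. Slc9a7 (an organellar sodium-proton exchanger, -1.16), Klf12 (a repressor of transcription, -1.09) and Aff2 (the gene silenced in FRAXE intellectual disability, -1.09) were the next of these genes, ahead of Usp9x and of Klhl11 (a substrate adaptor of ubiquitin ligases, -1.03). The remaining genes among the 15 most negative were Pcdhb16, Adnp, Uprt, C2cd3, Brwd3 and Ranbp2, beside Gse1 and Fam120c. In those 15 genes the difference between combination and memantine ran from -0.63 to -0.018 and was called in 0.

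The 15 most positive named genes ran from 0.52 to 0.73, and all were lower with sarcosine alone, by -0.52 to -0.22. Znhit2, a zinc-finger protein gene with a role in assembling the spliceosome, led them. Its counts were 101.1, 119.0 and 142.3 with vehicle, 68.1, 84.8 and 95.2 with sarcosine, 72.8, 91.9 and 99.6 with memantine, and 76.7, 102.7 and 129.5 with the combination. Both single-drug groups lay below every vehicle library, and the combination overlapped with all of the others. The interaction was 0.73 (SE 0.18, adjusted p = 0.0411), against a level of 62.0 had the log2 effects added and a geometric mean of 103.7.

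Chrac1, a histone-fold subunit of a chromatin accessibility complex, was the 1 gene of these 15 whose combination and memantine libraries did not overlap. The same held for 6 of the 99 named genes, and overlap was not examined over all genes tested. The counts of Chrac1 were 181.1, 202.5 and 217.7 with vehicle, 148.4, 165.8 and 206.9 with sarcosine, 153.5, 159.5 and 169.3 with memantine, and 179.3, 215.1 and 247.9 with the combination. The combination libraries ran from just under the lowest vehicle library to above the highest, and each drug alone gave a lower median. The interaction was 0.63 (SE 0.13, adjusted p = 0.0267), while the difference between combination and memantine, 0.39 ± 0.09 (SE), had an adjusted p of 0.13. Other genes of chromatin in the group were Ino80b, a subunit of a nucleosome remodeller, at 0.60 and H1f10, a linker histone variant, at 0.53.

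**Figure D3:**
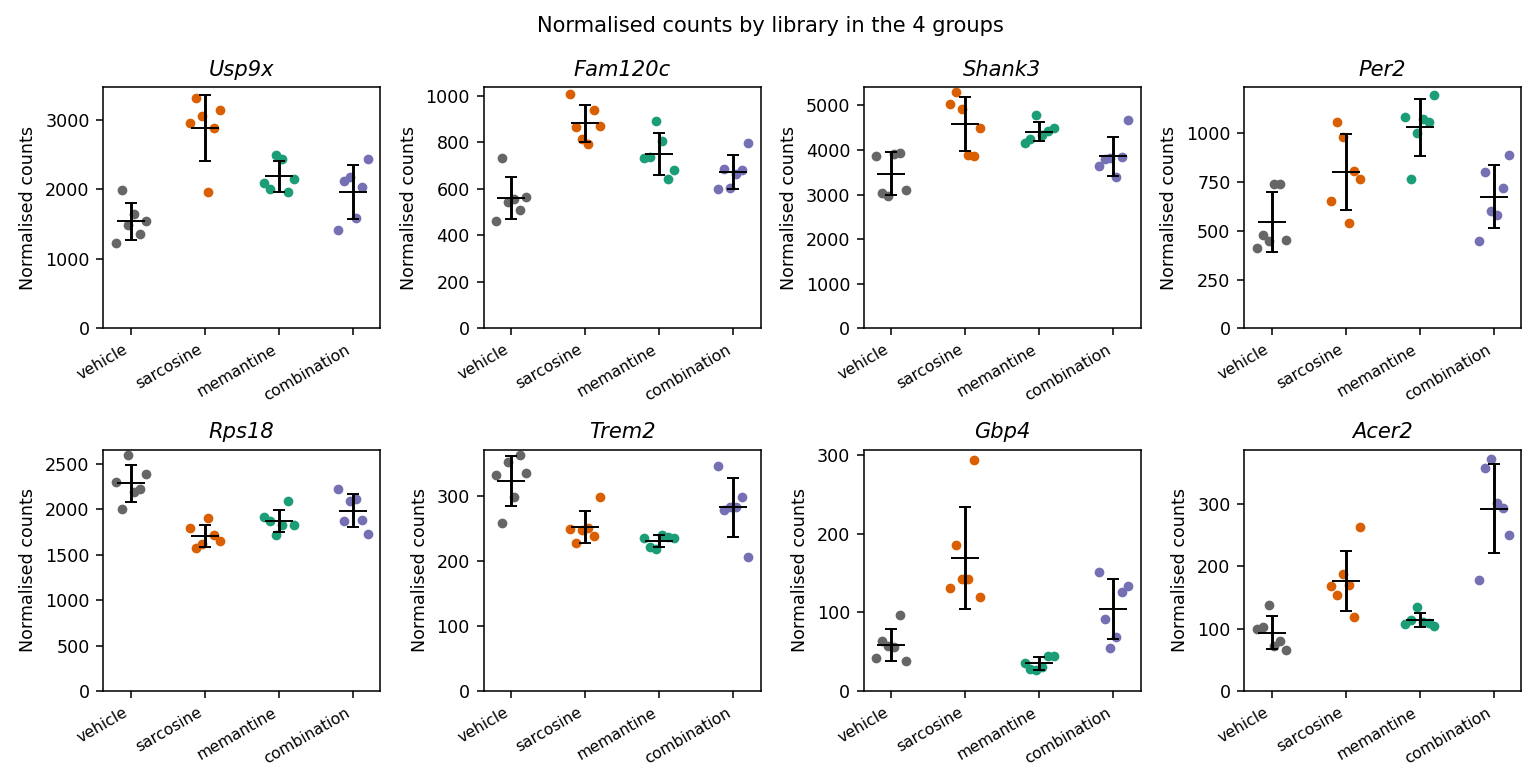
Normalised counts of 8 genes in each library of the 4 groups, with mean and SD (n = 6). Usp9x, Fam120c and Shank3 have their highest means with sarcosine and Per2 with memantine; Rps18 and Trem2 are highest with vehicle; Gbp4 and Acer2 are higher with sarcosine than without it in both backgrounds.

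Genes for the proteins of the ribosome lay on the positive side. Of the 75 tested genes for cytosolic ribosomal proteins, 13 were called positive and 0 negative, and 72 had an unadjusted p below 0.05. Over all genes tested 0.579% were called positive, and in the bin of the shortest genes 67 of 4072 were. The median interaction of the ribosomal list was 0.40, against 0.012 over all genes tested. In that list 74 of 75 values were above 0, the exception being Rps10 at -0.13. The median came from -0.34 for sarcosine minus vehicle and 0.067 for combination minus memantine. After the length correction the list median was 0.18, and these transcripts are short. Many of these genes have processed pseudogenes that could share their reads.

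Rps18, from the small subunit of the ribosome, had counts of 2002, 2268 and 2605 with vehicle, 1574, 1686 and 1902 with sarcosine, 1724, 1850 and 2092 with memantine, and 1734, 1991 and 2225 with the combination. All sarcosine libraries were below all vehicle libraries, and the combination overlapped with both single-drug groups. The interaction was 0.50 (SE 0.10, adjusted p = 0.0261). Rpl38 and Rpl10a, of the large subunit, had interactions of 0.46 and 0.42, and for each of them vehicle stood above both single-drug groups without overlap. Rpl37a was at 0.52 (adjusted p = 0.0444).

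Nuclear genes for subunits of oxidative phosphorylation followed the same course at a smaller size. Of 74 tested, 4 were called positive and 0 negative, against 0.579% and 1.24% of all genes tested. The median interaction was 0.29, or 0.067 after the length correction. The list medians were -0.30 without memantine and -0.014 with it. Cox4i1, a subunit of cytochrome c oxidase, had counts of 7207, 7983 and 9236 with vehicle, 5938, 6036 and 6614 with sarcosine, 5989, 6776 and 7374 with memantine, and 6064, 6731 and 7286 with the combination. The sarcosine libraries lay wholly below vehicle, and combination and memantine had nearly the same range. Its interaction was 0.37 (SE 0.09, adjusted p = 0.0425), and after the length correction it was 0.073.

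Atp5f1e, a small subunit of ATP synthase, had an interaction of 0.48, and Ndufb3, of complex I, one of 0.34. Among genes outside that list, the assembly factors Uqcc3 for complex III and Sdhaf1 for complex II were among the 15 most positive genes, at 0.65 (adjusted p = 0.0275) and 0.56 (adjusted p = 0.0308). For both of them each single-drug group lay wholly below vehicle. The 8 tested mRNAs encoded by the mitochondrial genome had a median of 0.15, or 0.0052 after the length correction, and 0 were called, with 0 at an unadjusted p below 0.05 and 0 called by edgeR or DESeq2. The share of reads from the mitochondrial genome was 4.79% ± 0.56 in vehicle libraries, 3.96% ± 0.35 in sarcosine libraries, 4.23% ± 0.48 in memantine libraries and 4.08% ± 0.35 in combination libraries (SD, n = 6). Its interaction of 0.675 percentage points had an adjusted p of 0.104 (permutation test of 100000 resamples).

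Among microglial markers 4 of 15 were called positive and 0 negative, against 0.579% and 1.24% of all genes tested. Their median was 0.30, or 0.098 after the length correction. Trem2, a lipid-sensing receptor of microglia, had counts of 259.1, 334.8 and 364.0 with vehicle, 228.8, 249.2 and 299.5 with sarcosine, 218.5, 236.1 and 240.3 with memantine, and 206.3, 283.4 and 347.8 with the combination. The memantine libraries were all below vehicle, and the combination spread over most of the range of the other groups. The interaction was 0.63 (SE 0.14, adjusted p = 0.0358), and 0.71 after the length correction (adjusted p = 0.139).

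The other called microglial markers were the 3 chains of the complement component C1q, of which C1qa was at 0.52 and C1qb at 0.47. After the length correction C1qa was at 0.26 and C1qb at 0.22. Fcer1g, the common signalling chain of Fc receptors, was at 0.60, or 0.32 after the length correction. The homeostatic markers P2ry12 (-0.02), Tmem119 (-0.07) and Cx3cr1 (0.02) did not pass the test. The summed level of the 15 markers was 9708 to 12669 in vehicle libraries, 8888 to 10104 in sarcosine libraries, 8760 to 10652 in memantine libraries and 9379 to 10561 in combination libraries. In bulk tissue fewer cells of a type and less RNA per cell cannot be told apart.

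The clock genes included the 2 genes called in memantine against vehicle. Per2, Per3 and Nr1d2 belong to the negative limb of the circadian oscillator. Of 22 tested clock genes 0 were called positive and these 3 negative, against 0.579% and 1.24% of all genes tested. The list median was -0.25, or -0.14 after the length correction. Per2 had counts of 411.5, 466.7 and 738.3 with vehicle, 538.0, 784.0 and 1053 with sarcosine, 762.7, 1064 and 1192 with memantine, and 445.3, 660.3 and 888.0 with the combination. Every memantine library was above every vehicle library, and the combination overlapped with all of the other groups. The level would have been 1498 had the log2 effects added, against a geometric mean of 655.7. The interaction was -1.19 (SE 0.26, adjusted p = 0.0322).

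Nr1d2, a repressor that binds haem, had the smallest standard error of the 3. Its counts were 988.1, 1176 and 1275 with vehicle, 1224, 1429 and 1541 with sarcosine, 1537, 1725 and 1783 with memantine, and 1302, 1442 and 1768 with the combination. Memantine stood above vehicle without overlap, and the combination was centred on the sarcosine values. The interaction was -0.48 (SE 0.10, adjusted p = 0.0275). Per3 had one of -0.58 (SE 0.15, adjusted p = 0.0473), which stayed called in 3 of the 24 fits that left out 1 library.

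Memantine against vehicle called 2 of 16578 genes (0.0121%), and these were Nr1d2 at 0.54 (adjusted p = 0.00144) and Per3 at 0.67 (adjusted p = 0.0155). That count was 3 with edgeR, 424 with DESeq2, 421 with library weights, 321 with olfactory bulb and striatal scores as covariates and 22 with upper-quartile scaling. It was 17 without vehicle replicate 2, 42 without combination replicate 6 and 1 to 42 over all fits that left out 1 library. Combination against sarcosine called 0 genes (0%), with 1443 at an unadjusted p below 0.05, and edgeR also called 0 where DESeq2 called 45. Memantine minus vehicle was 0.95 for Per2, which did not pass the test (adjusted p = 0.0753). The mice were kept on a reversed light cycle, and the labels do not give the hour at which each mouse was killed. Whether that hour differed between groups was not tested.

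Immediate early genes, which neurons transcribe within minutes of activity, had a low median without a called member. Of 31 tested, 0 were called by limma, edgeR or DESeq2. An unadjusted p below 0.05 was found for 6, against 2782 of all 16578 genes tested. The median interaction was -0.64, and -0.65 after the length correction. The list median was -0.54 for combination minus memantine and 0.051 for sarcosine minus vehicle. Arc, which regulates AMPA receptor trafficking, had counts of 627.9, 2628 and 8275 with vehicle, 1060, 3520 and 8856 with sarcosine, 2429, 4881 and 7093 with memantine, and 1025, 2298 and 3477 with the combination. The vehicle and sarcosine libraries spread most widely, and all groups overlapped. The interaction of -1.76 (SE 0.71) had an adjusted p of 0.193, and that of Egr1, -1.20 (SE 0.47), one of 0.177.

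Genes of the heat shock and unfolded protein responses, a list of chaperones and stress regulators of several compartments, likewise had no called member. In it 0 of 31 were called by limma and 0 by edgeR, and 1 by DESeq2. An unadjusted p below 0.05 was found for 12, against 2782 of all 16578 genes tested. The median was -0.28, and -0.36 after the length correction. Hspa5, the main chaperone of the endoplasmic reticulum, had counts of 4481, 5181 and 6223 with vehicle, 4861, 5443 and 6243 with sarcosine, 5986, 7555 and 9485 with memantine, and 4287, 4906 and 9079 with the combination. Memantine had the highest median, 1 combination library stood far above the combination median, and the groups overlapped. Its interaction was -0.57 (SE 0.20, adjusted p = 0.118), and that of Pdia4, a disulphide isomerase, was -0.62 (SE 0.20, adjusted p = 0.104).

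The lists of autism-associated and postsynaptic density genes had negative median interactions. Their median transcript lengths were 7387 and 6077 bases, against 3281 over all genes tested. The bin of the longest genes had a median interaction of -0.19. Among 46 autism-associated genes 7 were called negative and 0 positive, against 1.24% and 0.579% of all genes tested. In the bin of the longest genes 168 of 4072 were called negative. The list median was -0.27, or -0.10 after the length correction. The 7 called genes were Adnp, Kmt2c, Rai1, Shank3, Tcf20, Trip12 and Wac, most of which encode nuclear proteins. Shank3, a scaffold of the postsynaptic density, had counts of 2961, 3484 and 3927 with vehicle, 3874, 4703 and 5290 with sarcosine, 4163, 4387 and 4783 with memantine, and 3389, 3808 and 4675 with the combination. Every memantine library was above every vehicle library, and the sarcosine and vehicle libraries overlapped. The interaction was -0.60 (SE 0.13, adjusted p = 0.0328). Of 24 genes of the postsynaptic density it was the 1 called, and the median of that list was -0.20, or -0.084 after the length correction.

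Adnp, a homeobox transcription factor gene, was higher with sarcosine than with vehicle without overlap, at 135.4 ± 24.9 against 73.6 ± 8.4 (SD, n = 6). With memantine it was at 106.2 ± 26.2 and with the combination at 97.6 ± 21.8, and its interaction was -0.97 (SE 0.24, adjusted p = 0.0431). Clustered protocadherins, adhesion proteins that give neurons individual surface identities, had a median of -0.46 over 45 genes, from 0.47 without memantine to 0.001 with it. Only Pcdhb16 among them was called, at -0.98 (adjusted p = 0.0463), where 1.82% of all genes tested were called. An unadjusted p below 0.05 was found for 21 of the 45, against 2782 of all 16578 genes tested. Genes of these clusters resemble each other, and reads shared between them would be assigned uncertainly.

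The targets of the drugs did not pass the test. The NMDA receptor list held Neto1, Neto2 and Srr, which are not receptor subunits, beside the subunit genes. Of its 9 tested genes 0 were called by limma, edgeR or DESeq2, and 1 had an unadjusted p below 0.05. The list median was -0.16, or -0.020 after the length correction. Grin1, the obligatory subunit, had counts of 4430, 5334 and 6928 with vehicle, 4348, 5858 and 6945 with sarcosine, 4757, 5918 and 6071 with memantine, and 4604, 5720 and 6040 with the combination. The ranges of the 4 groups overlapped broadly. Its interaction was -0.060, with a 95% interval of -0.40 to 0.27. Grin2a was at -0.14 (-1.00 to 0.72) and Grin2b at -0.47 (-0.90 to -0.040, adjusted p = 0.244).

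Slc6a9, which encodes the glycine transporter GlyT1, had counts of 265.7, 333.3 and 508.6 with vehicle, 341.6, 422.4 and 618.1 with sarcosine, 286.5, 421.4 and 652.8 with memantine, and 289.0, 413.9 and 542.8 with the combination. All groups overlapped. The interaction was -0.37, with an interval of -0.97 to 0.24. Among 14 genes of glycine and D-serine handling only Slc38a1, a neutral amino acid transporter that supplies neurons with glutamine, was called, at -0.42 (SE 0.11, adjusted p = 0.0447). Over all genes tested 1.82% were called.

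The enzymes that make and break down sarcosine were measured as well. Sardh, the mitochondrial sarcosine dehydrogenase, had an interaction of -0.16 (-0.41 to 0.095), with means of 205.9 ± 16.9, 201.9 ± 14.4, 209.9 ± 30.2 and 183.5 ± 16.3 for vehicle, sarcosine, memantine and combination (SD, n = 6). Pipox, a peroxisomal sarcosine oxidase, was at 0.42 (-1.07 to 1.91), and Gnmt, which methylates glycine to sarcosine, at 0.014 (-1.41 to 1.44) from a low level. The intervals of these last genes are too wide to show or bound a moderate difference. Over 27 genes of sarcosine and one-carbon metabolism 0 were called by limma and by edgeR, and 2 by DESeq2. An unadjusted p below 0.05 was found for 5, against 2782 of all 16578 genes tested.

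The remaining neuronal lists held 0 called genes, and DESeq2 called 1 in each of the lists for AMPA and kainate receptors and for potassium channels. The medians were -0.054 over 16 AMPA and kainate receptor genes, -0.16 over 14 GABA-A receptor genes and -0.24 over 37 potassium channel genes, with 1, 2 and 4 at an unadjusted p below 0.05. After the length correction they were -0.064, -0.069 and -0.039. Gabrb2 (GABA-A receptor) was at -0.89 (adjusted p = 0.116) and Kcnj6 (an inwardly rectifying channel) at -0.80 (adjusted p = 0.0948). Upper-quartile scaling turned the sign of the median for AMPA and kainate receptors, which became 0.023.

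**Figure D4:**
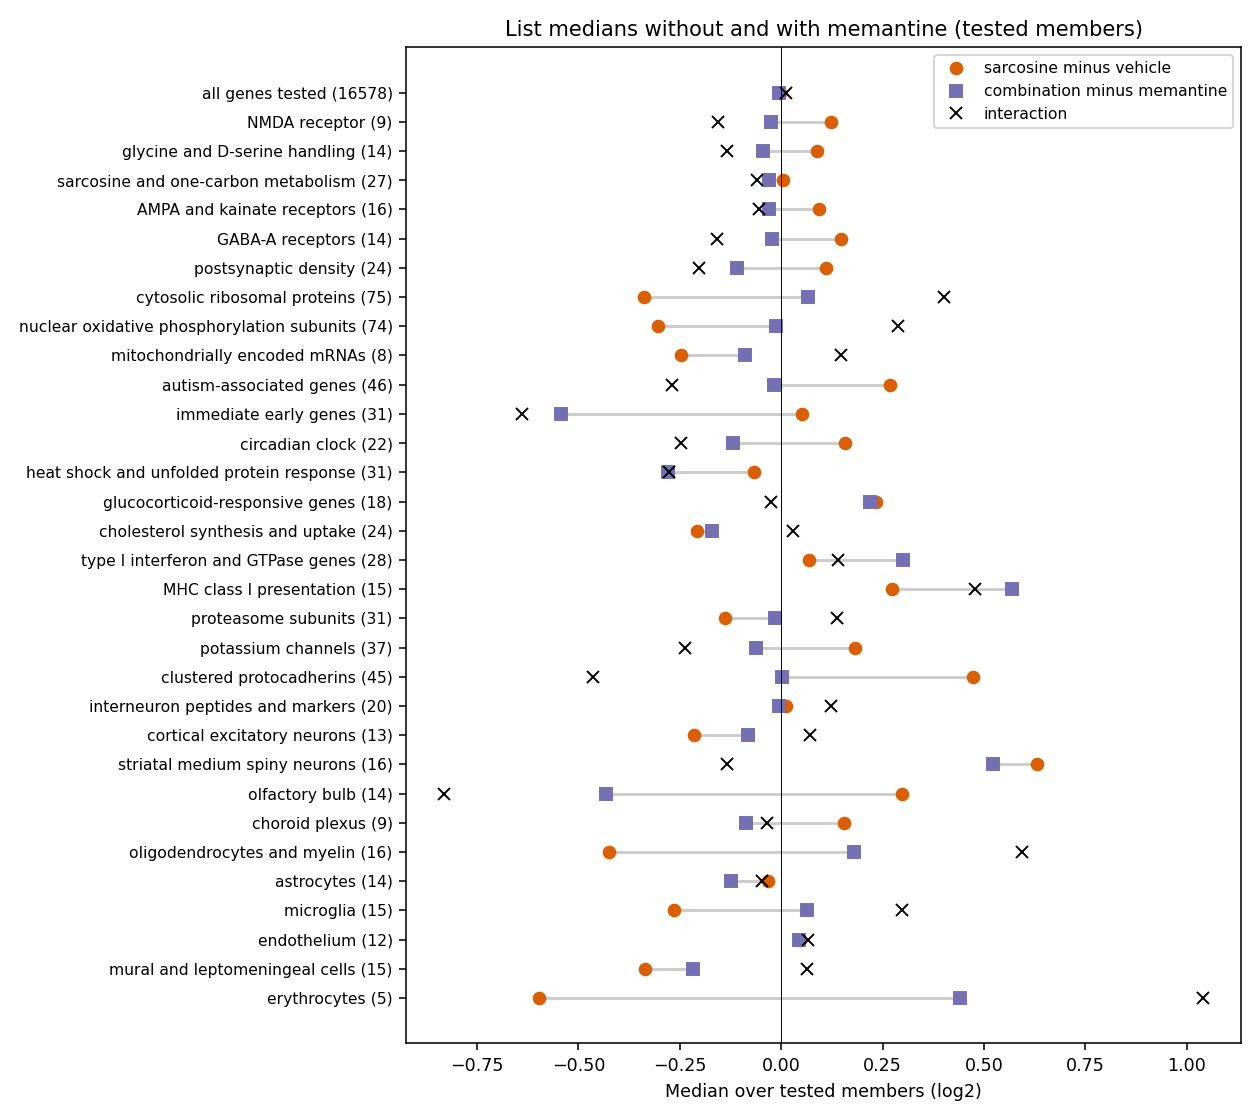
Median log2 difference over the tested members of each list (number in brackets) for sarcosine minus vehicle (circles), combination minus memantine (squares) and the interaction (crosses). The ribosomal protein median is -0.34 without memantine and 0.067 with it, and the immediate early gene median is 0.051 and -0.54.

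Sarcosine's effects could also be compared between backgrounds in separate libraries, since the sarcosine and vehicle libraries on the one side and the combination and memantine libraries on the other share none. Sarcosine against vehicle called 1548 genes (9.34%), and combination against memantine 9 (0.0543%), with 1280 at an unadjusted p below 0.05. After the length correction these counts were 187 and 14. With DESeq2 they were 2135 and 61, with library weights 3149 and 30, and with olfactory bulb and striatal scores as covariates 4272 and 50. Leaving out 1 library gave 1078 to 1936 and 3 to 51, the highest without sarcosine replicate 4 and without combination replicate 6. The 782 genes that rose with sarcosine had a median difference of 0.34 there and of -0.029 between combination and memantine, where 37.0% were above 0. The 766 genes that fell had medians of -0.32 and -0.020, and 40.3% were above 0. Over all genes tested 48.7% were above 0. The first median of each set comes from the values that chose its genes, so its sign was fixed and its size is inflated. The second median comes from libraries that did not choose them.

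Across the 16578 genes the correlation of the effects was 0.081, and 0.139 after the length correction. With 1 library left out it lay between -0.026 and 0.199. It was 0.395 with olfactory bulb and striatal scores as covariates, 0.243 with mural, choroid plexus and myelin scores, and -0.132 with library weights, so its size and sign depended on the model. Of the 8 named genes that rose most with sarcosine, 3 had a called interaction, and of the 8 that fell most 1 did, the histone gene H2aj at 0.45 (adjusted p = 0.0454). Among all genes called in sarcosine against vehicle, the interaction was called for 188 of the 782 that rose and 85 of the 766 that fell. Sarcosine minus vehicle is part of the interaction, so these counts follow in part from how the genes were chosen.

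**Figure D5:**
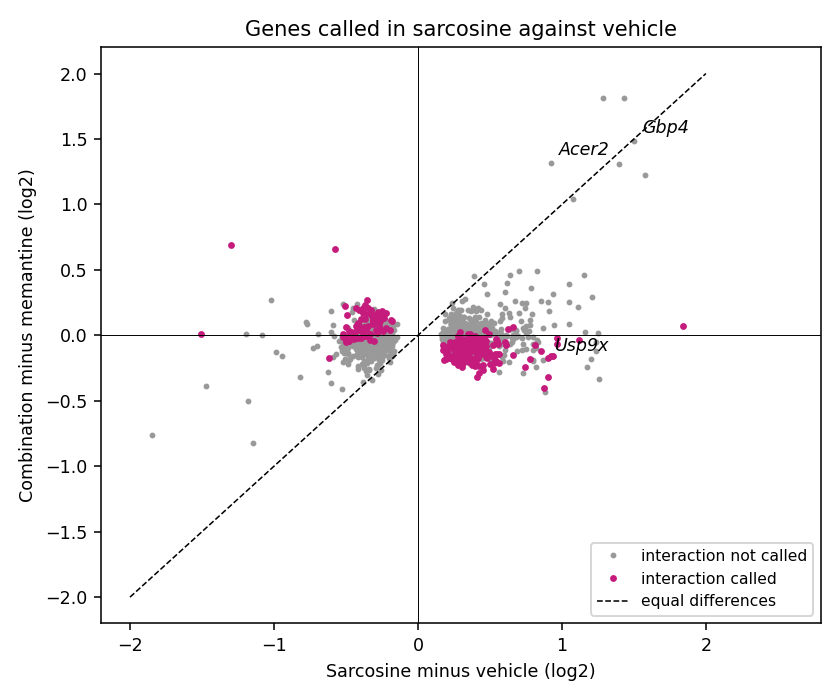
Genes called in sarcosine against vehicle, with the log2 difference of sarcosine minus vehicle (horizontal) against that of combination minus memantine (vertical). Magenta marks a called interaction, and the dashed line equal differences; most genes lie near 0 on the vertical axis, and Gbp4 lies near the dashed line.

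Of the 782 genes that rose with sarcosine, 5 were also called, and higher, in combination against memantine. Gbp4, an interferon-induced guanylate-binding protein, had counts of 38.4, 56.5 and 96.4 with vehicle, 119.8, 142.6 and 293.4 with sarcosine, 27.2, 33.0 and 44.9 with memantine, and 54.8, 108.7 and 151.7 with the combination. Sarcosine lay wholly above vehicle and the combination wholly above memantine. The differences were 1.50 ± 0.26 (SE, adjusted p = 0.00153) and 1.49 ± 0.26 (SE, adjusted p = 0.0314), and the interaction was -0.018 with a 95% interval of -0.78 to 0.74.

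Acer2, an alkaline ceramidase of the Golgi apparatus, had counts of 65.0, 90.1 and 138.1 with vehicle, 118.6, 169.6 and 263.0 with sarcosine, 104.1, 110.1 and 135.1 with memantine, and 178.8, 298.1 and 371.3 with the combination. The combination libraries were all above the memantine libraries, and sarcosine and vehicle overlapped. Its differences were 0.92 ± 0.19 without memantine (adjusted p = 0.00391) and 1.32 ± 0.19 with it (adjusted p = 0.00215), and the interaction was 0.40 (-0.15 to 0.95).

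The other named genes called in combination against memantine serve antigen presentation or blood cells. They were H2-Q4, a non-classical class I molecule, at 1.25, Tap1, which pumps peptides for class I loading, at 1.08, and Plek, a substrate of protein kinase C in blood cells and microglia, at 0.42. Without memantine the values of these genes were 0.70, 0.53 and 0.18, with adjusted p of 0.0521, 0.0935 and 0.144, and their interactions had adjusted p of 0.422, 0.318 and 0.276. Of the 4 called genes with a mean under 50, named here after their values were seen, H2-Q6 and H2-Q7 are class I genes like H2-Q4, Tgtp2 is an interferon-inducible GTPase, and the non-coding 1700096K18Rik also had a called interaction, at 1.07 (adjusted p = 0.0261). Class I and guanylate-binding protein genes have close paralogues, between which reads could be split uncertainly.

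Over 15 genes of class I presentation the median interaction was 0.48, or 0.26 after the length correction, with 0 called by limma, edgeR or DESeq2 and 3 at an unadjusted p below 0.05. Their medians were 0.27 without memantine and 0.57 with it. Over 28 type I interferon and GTPase genes the median was 0.14 and 0 were called by any of these tools or at an unadjusted p below 0.05.

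The lists for glucocorticoid-responsive genes (18 tested, median -0.026), cholesterol synthesis and uptake (24, 0.029) and proteasome subunits (31, 0.14) also held 0 genes called by limma or edgeR. DESeq2 called 0, 2 and 3 of them, and 3, 4 and 8 had an unadjusted p below 0.05. The sign of the proteasome median turned with the length correction, to -0.033, and that of the glucocorticoid median with upper-quartile scaling, to 0.051. The cholesterol median turned to -0.033 with olfactory bulb and striatal scores as covariates.

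Markers of the other cells and tissues that a cortical punch can hold had 0 genes called by limma or edgeR, outside microglia. The medians were -0.83 over 14 olfactory bulb markers, -0.13 over 16 of striatal medium spiny neurons, -0.035 over 9 of the choroid plexus, 0.59 over 16 of oligodendrocytes and myelin, and 1.04 over 5 erythrocyte genes. Among the alternatives these medians ran from -1.31 to 0.20, -0.43 to 0.22, -1.75 to 1.85, 0.024 to 1.27 and 0.65 to 1.26, so the first 3 turned sign. None of the markers of the first 4 tissues had an unadjusted p below 0.05, and 3 of the erythrocyte genes did. Hba-a1, an alpha-globin gene, had counts of 128.5, 334.7 and 531.5 with vehicle, 124.1, 168.0 and 284.6 with sarcosine, 133.0, 179.7 and 292.2 with memantine, and 97.1, 290.5 and 421.1 with the combination. The groups overlapped, and the interaction of 1.15 (SE 0.47) had an adjusted p of 0.192.

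The medians over 14 astrocyte, 12 endothelial and 15 mural and leptomeningeal markers were -0.048, 0.065 and 0.064, each turning sign in at least 1 alternative, with 1, 4 and 1 at an unadjusted p below 0.05. Those over 13 markers of cortical excitatory neurons and 20 of interneurons were 0.070 and 0.12, with 0 and 2, and turned to -0.27 and -0.007 with library weights. DESeq2 called 1 astrocyte and 1 erythrocyte gene. With the olfactory bulb and striatal scores as covariates the interaction was called for 1516 genes, 301 of them shared with the fit without covariates. With mural, choroid plexus and myelin scores it was called for 201, of which 143 were shared.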

How the data were processed

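The deposited table holds normalised counts per gene, a depth-scaled signal that the authors made by dividing gene counts by a size factor for each library; the submitters' processing notes name FastQC, STAR, featureCounts 1.6.0, DESeq2 1.42.1 and the mouse build mm39. Every value in the 24 libraries came out within 0.01 of a whole number of reads after division by that library's step, which gave the read totals and the counts for edgeR and DESeq2. How strand was counted is not given in the sources used here.

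Interactions were fitted with limma 3.58.1 (R 4.3.3) with an intensity trend on log2(value + 1), with 1 mean for each of the 4 groups and a filter of at least 10 in at least 6 libraries, and called at a Benjamini-Hochberg adjusted p below 0.05 over all genes. A fold change on this scale understates the change of low genes. Additive levels are geometric, from group means of log2(value + 1). Counts in the alternatives were tested with edgeR 4.0.16 and DESeq2 1.42.0. The fit was also run on simulated counts in which some genes changed in the sarcosine group only. Those counts held no length slope and no admixture of neighbouring tissue, so that run cannot bear on either.

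Lengths and GC content came from the longest transcript of each gene in a GENCODE annotation of an earlier mouse build, so no coordinates are given; 98.2% of the genes tested had one. The correction was a loess fit (span 0.3) of each library on both. Library measures were tested by permuting residuals of the additive model.

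The comparison, all 31 gene lists and the rule for naming genes were chosen with earlier results of these data known. Named genes had an official symbol and a mean of at least 50: the 15 most positive and 15 most negative called interactions, the members of each list with the smallest p (3 for core lists, 1 for others), 7 drug-target genes fixed by name whatever their level, the 8 genes that rose and 8 that fell most with sarcosine, and up to 5 called in each direction in combination against memantine. Further called list members are named to complete a count. Alternatives were other pseudocounts, filters, scalings, library weights, tools, covariates, the replicate block, the length correction and leaving out each library.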

Additional observations from a re-analysis of the deposited data

Results flagged for a closer look

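The sarcosine effect differed with memantine present for 301 genes, the length slope had an interaction of -0.492, and the number of reads per library one of -4970700; the part of depth and of length in the called genes beyond the length correction was not tested. Within groups of 6, 192 sets of values of the called named genes and library measures were examined for a library standing far from the others, and 10 stood out; chance alone gives about 1 in 20. The gap of that library to the nearest one was, as a share of the group's range, 0.834 for the lowest sarcosine value of Trip12, 0.794 for that of Klhl11, 0.737 for that of Slc9a7 and 0.729 for that of Usp9x. In each of these 4 genes the low library was sarcosine replicate 4, the sarcosine library with the lowest length slope. The share was 0.646 for the highest sarcosine value of Trem2, 0.707 for the lowest memantine value of Ndufb3, 0.626 for that of Aff2, 0.625 for the highest combination value of Uprt and 0.640 for the lowest vehicle value of Zfp787. Memantine replicate 4 had the fewest reads, with a share of 0.650.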

How the results depend on the processing

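The number of genes with a called interaction, 301 with the settings above, was 268 with TMM scaling, 256 with edgeR and 301 with a pseudocount of 0.5 or 5. It was 0 with no filter on low values (3542 genes at an unadjusted p below 0.05), 451 with a filter of at least 50, 475 with upper-quartile scaling, 65 without the trend and with robust moderation, 1516 with library weights and 935 with DESeq2. It was 1516 with olfactory bulb and striatal marker scores as covariates and 201 with mural, choroid plexus and myelin scores. It was 0 with the length and GC correction, with mean transcript length in that correction (added after seeing the data), with the correction and the replicate block, and with the correction without sarcosine replicate 1. With a replicate block alone it was 131 (35 positive and 96 negative). Same-numbered libraries did not deviate together in every pair (36 correlations from -0.750 to 0.733, median 0.106), and 6 of 24 libraries correlated best with their own number, so the numbers were not taken as pairs. Leaving out 1 library gave 0 to 983 genes, with 2398 to 3265 at an unadjusted p below 0.05. The length slope interaction was -0.514 with mean transcript length and -0.547 to -0.441 without 1 library. The correlation of sarcosine effects was 0.048 over genes with a mean of at least 100. Of the 44 named genes with a called interaction, 44 were called with DESeq2, 41 with edgeR, 23 with mural, choroid plexus and myelin scores, 22 with the replicate block, 16 without the trend and with robust moderation, 0 with no filter and 0 of 43 with the length correction, and the sign of 0 turned in these alternatives. The cause of these shifts was not tested.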
